A study of Mus musculus with 6 samples.

Results

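The genes of the insulin-like growth factor (IGF) axis were chosen by name, as every record of the expression table called Igf1, Igf2, Igf1r, Igf2r or Igfbp2 to Igfbp7. All 10 names were found once among the 24602 genes of the table. They encode the 2 ligands, their 2 receptors and 6 secreted IGF-binding proteins. The tissue was the left ventricle of wild-type mice, 5 weeks after surgery, with 3 libraries from mice that had transverse aortic coarctation (TAC) and 3 from sham-operated mice. TAC narrows the aorta beyond the heart and makes the left ventricle pump against a raised pressure, and the sham mice had an operation without it. The labels number the samples and give neither age nor strain. Whether the 3 samples of a group are 3 mice is not said in them, so any p-value rests on a spread between samples that may be technical.

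IGF1 and IGF2 are small secreted growth factors that signal through IGF1R, a receptor tyrosine kinase that feeds the PI3K and AKT pathway and, in the heart, is known for physiological growth and cell survival. IGF2R has no kinase and carries IGF2 to lysosomes, where it is broken down, and it also sorts lysosomal enzymes that bear mannose 6-phosphate. The IGF-binding proteins hold the ligands in tissue and blood, keep them from the receptor or release them when proteases cut the carrier.

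Messenger RNA was purified on oligo(dT) beads and sequenced. Values per gene are FPKM, fragments scaled to transcript length and to the size of the library, beside an estimated count, and libraries summed to between 64023153 and 69992502 estimated counts. Genes encoded by the mitochondrial genome took 22.6% to 29.2% of these counts in TAC and 14.8% to 19.2% in sham. TAC replicate 3 had a median FPKM over all genes of 0.356, against 0.234 to 0.274 in the other libraries, and it held the highest value of 31.7% of the 8795 genes that average at least 1 FPKM. Sham replicate 2 held that of 30.4%, and the other 4 libraries that of 4.51% to 15.9%. Nppb, the gene of B-type natriuretic peptide and a marker of ventricular wall stress, had 361, 430 and 388 FPKM in TAC and 147, 170 and 123 FPKM in sham. Summed over 10 ventricular cardiomyocyte markers, the level was 29044 to 38133 FPKM in TAC, below the 38743 to 46590 FPKM in sham. The 6 pericyte markers (81.2 to 83.1 FPKM in TAC, 85.6 to 95.8 FPKM in sham) and 5 Schwann cell markers (1.77 to 2.65 FPKM in TAC, 2.86 to 3.74 FPKM in sham) were also lower in every TAC library. The 8795 genes had a median log2 fold change of TAC over sham of -0.13 on log2(FPKM + 1). The marker sums were not adjusted for this, so a small fall need not be particular to a cell type. The 6 atrial cardiomyocyte markers were higher in every TAC library, at 1311 to 2923 FPKM in TAC and 498 to 1191 FPKM in sham. The summed fibroblast, endothelial, smooth muscle, macrophage, epicardial and blood cell markers overlapped between the groups, and no marker gene was at 0 in all 6 libraries. The part of these differences in the results on the IGF genes was not tested. In bulk tissue, fewer cells of a type and less RNA per cell cannot be told apart.

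Promoter sequences are given for 4 genes on which the results turn, both ligands and the binding proteins Igfbp2 and Igfbp7. They come from RefSeq for GRCm38.p6 and run from 250 bases before to 50 bases after a gene's start, 5′ to 3′ on the gene's strand. Igf2 has 4 such windows and Igfbp2 has 2, of which 1 is shown for each. In the deposited table, in GRCm38, Igf1 spans 87858265 to 87937042 on chromosome 10, Igf2 142650766 to 142666816 on chromosome 7, Igfbp2 72824503 to 72852474 on chromosome 1 and Igfbp7 77349240 to 77408041 on chromosome 5. The windows shown for Igf1 and Igf2 thus lie within the gene's span, at a start downstream of its 5′ end. Capitals mark the motifs searched on both strands, the GC box (GGGCGG), the TATA box (TATAAA), the CCAAT box (CCAAT), the E-box (CACGTG) and a forkhead motif (TGTTTAC).
Igf1, chr10:87860861-87861160, plus strand: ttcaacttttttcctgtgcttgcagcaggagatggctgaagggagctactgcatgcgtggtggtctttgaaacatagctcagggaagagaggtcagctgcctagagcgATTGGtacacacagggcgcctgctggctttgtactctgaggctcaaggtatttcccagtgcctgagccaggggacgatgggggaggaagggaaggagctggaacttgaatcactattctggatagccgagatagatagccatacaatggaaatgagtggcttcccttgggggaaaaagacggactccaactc
Igf2, chr7:142657447-142657746, minus strand: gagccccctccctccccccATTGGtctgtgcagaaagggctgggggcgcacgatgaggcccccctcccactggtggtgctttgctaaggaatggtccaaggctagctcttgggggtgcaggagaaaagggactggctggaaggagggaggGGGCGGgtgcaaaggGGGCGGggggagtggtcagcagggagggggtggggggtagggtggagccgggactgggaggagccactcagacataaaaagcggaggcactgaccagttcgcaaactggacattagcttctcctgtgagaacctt
Igfbp2, chr1:72824230-72824529, plus strand: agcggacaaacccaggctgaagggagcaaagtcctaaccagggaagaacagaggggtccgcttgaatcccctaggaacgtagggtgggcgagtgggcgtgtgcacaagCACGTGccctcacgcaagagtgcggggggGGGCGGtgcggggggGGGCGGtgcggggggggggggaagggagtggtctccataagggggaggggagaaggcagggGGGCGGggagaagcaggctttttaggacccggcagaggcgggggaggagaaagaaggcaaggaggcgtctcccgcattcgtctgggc
Igfbp7, chr5:77407996-77408295, minus strand: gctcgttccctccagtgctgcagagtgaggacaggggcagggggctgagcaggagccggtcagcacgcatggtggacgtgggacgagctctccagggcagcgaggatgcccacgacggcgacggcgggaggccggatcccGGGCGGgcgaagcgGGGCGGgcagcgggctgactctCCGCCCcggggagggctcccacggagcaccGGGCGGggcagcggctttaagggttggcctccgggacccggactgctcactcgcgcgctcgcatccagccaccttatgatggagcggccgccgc

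The ligand windows shown each hold 1 CCAAT box, on the opposite strand, and that of Igf2 also holds 2 GC boxes. The Igfbp2 window has 3 GC boxes and 1 E-box, and the Igfbp7 window has 4 GC boxes, 1 of them on the opposite strand. Over 32851 promoter windows of the same length, 35.7% hold a GC box, 37.4% a CCAAT box, 13.6% a TATA box, 7.15% an E-box and 3.65% the forkhead motif. All 10 genes had a window, 14 in all, and the forkhead motif was in none of them. Igfbp4 and Igfbp6 each have 1 TATA box. CG dinucleotides numbered 6 in the Igf1 window, 7 in the Igf2 window shown, 18 in the Igfbp2 window and 33 in the Igfbp7 window, where the median of all windows was 7 (quartiles 3 and 20). The receptor windows hold more, 48 for Igf1r and 34 for Igf2r. The Igf2 windows not shown hold 2, 14 and 24, with 1 GC box in the last and no other motif. The Igfbp2 window not shown holds 14 and none of the motifs. For both genes the window shown is thus the richest in these motifs. A match describes the letters in the window and is not a shown binding site.

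The binding proteins made up most of the axis's messenger RNA on the FPKM scale, which is per length and allows genes to be set side by side. In TAC the order of mean levels was Igfbp7, Igfbp6, Igfbp4, Igfbp5, Igf2r, Igfbp3, Igf2, Igf1r, Igfbp2 and Igf1. In sham it was Igfbp7, Igfbp4, Igfbp6, Igfbp5, Igf2r, Igf2, Igfbp3, Igf1r, Igf1 and Igfbp2. Igfbp7 stood apart from the next gene in every library, with rank 346 of 24602 genes by its mean. Neighbours whose library values overlapped in TAC were Igfbp6 with Igfbp4, Igfbp4 with Igfbp5, Igfbp5 with Igf2r, Igfbp3 with Igf2, Igf1r with Igfbp2 and Igfbp2 with Igf1. In sham the overlapping neighbours were Igfbp5 with Igf2r and Igf2 with Igfbp3.

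**Figure D1:**
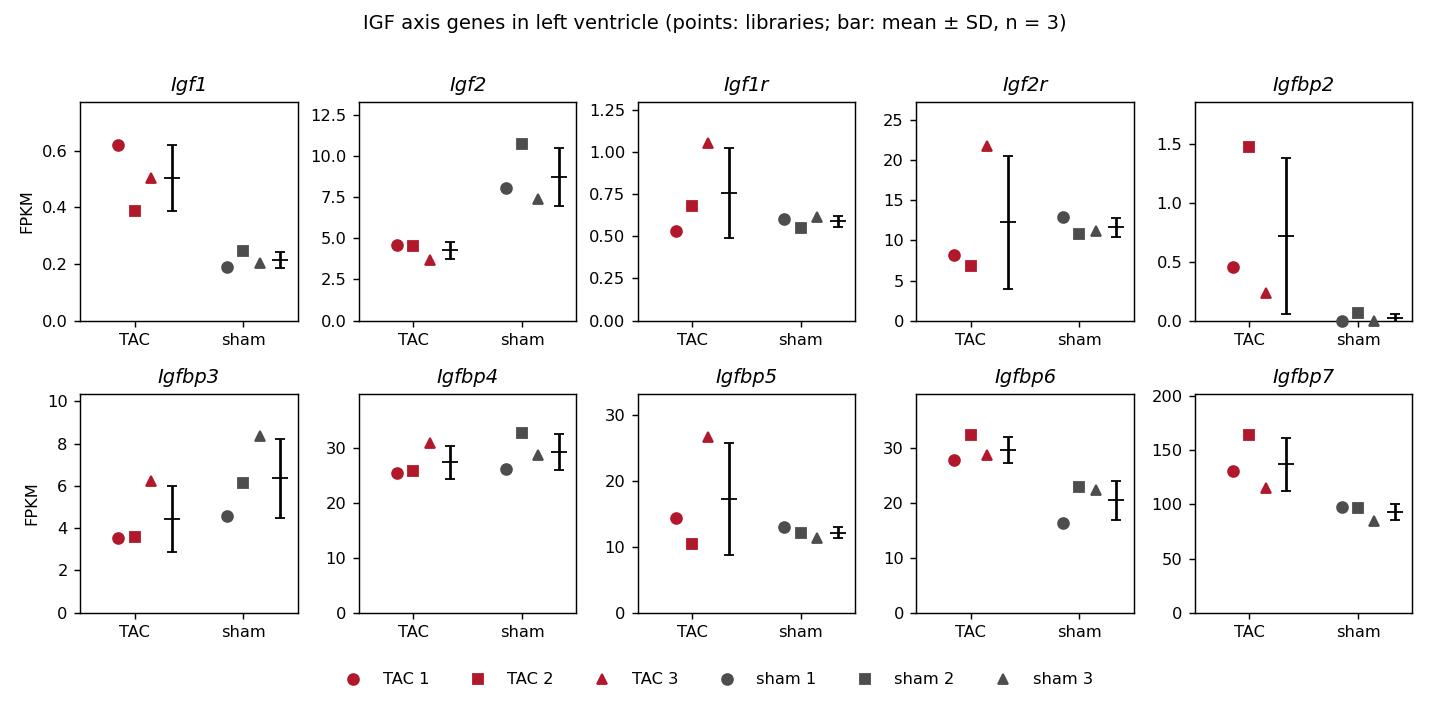
FPKM of the 10 IGF axis genes in each library, TAC at the left and sham at the right of each panel; each point is 1 library and the bars give mean ± SD (n = 3). Igf1, Igfbp2, Igfbp6 and Igfbp7 lie higher in every TAC library than in any sham library, Igf2 lies lower, and the groups of the other 5 genes overlap.

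The comparison of TAC with sham asked how pressure load goes with the level of each gene. In FPKM, 4 of the 10 genes were higher in every TAC library than in any sham library, 1 was lower and 5 overlapped. Of the 15926 genes with enough counts to be tested, 15.5% stood above and 16.5% stood below in this way. Among the 8795 genes that average at least 1 FPKM, as Igf2 does, 11.6% stood above and 25.4% stood below. In edgeR's quasi-likelihood test with Benjamini-Hochberg adjustment, 7 of the 10 lay above the minimum, a mean of 1 FPKM, and were tested. None of them passed an adjusted p of 0.05 as higher in TAC, where 4.71% of the 8795 tested genes did, and 1, Igf2, passed as lower, where 2.29% did. At an unadjusted p under 0.05, 3 of the 7 were higher (16.2% of tested genes) and 1 was lower (11.9%). DESeq2 passed 2 of the 7 as higher, where it passed 11.7% of tested genes, and limma on log2(FPKM + 1) passed 0, where it passed 1.98%. The same test on the 15926 genes kept by edgeR's own count filter, added after the data were seen, took in Igf1, Igf1r and Igfbp2, which lie under the FPKM minimum. There 2 of 10 passed as higher, Igf1 and Igfbp2 (3.0% of tested genes), and 1 as lower, again Igf2 (1.86%). Igfbp2 met the count filter through its TAC libraries alone, so it had to differ and adds nothing to that count. With any 1 library other than TAC replicate 3 left out, 0 of the 10 passed with either filter. Without TAC replicate 3, 2 of 7 passed as higher and 1 as lower with the FPKM minimum (9.24% and 10.1% of tested genes), and 4 and 1 of 10 with the count filter (5.49% and 6.33%). Igfbp2 is among those 4 and again adds nothing to the count.

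Both ligand genes passed the test, in opposite directions. Igf1 had 0.621, 0.388 and 0.505 FPKM in TAC, against 0.191, 0.247 and 0.204 FPKM in sham, from 288 to 417 estimated counts per TAC library and 135 to 173 per sham library. Every TAC library lay above every sham library, and the mean was 0.505 ± 0.116 FPKM in TAC and 0.214 ± 0.0293 FPKM in sham (SD, n = 3 each). Its log2 fold change was 1.28 ± 0.26 (SE; edgeR adjusted p = 0.0344 in the fit with the count filter). The longest Igf1 transcript has 7052 bases and is 38.0% G and C, and these values stood for the gene when trends were fitted. Once trends over GC content and length between the libraries were removed, the log2 fold change was 0.54 with an edgeR adjusted p of 0.318. It also missed with limma on log2(FPKM + 1) (adjusted p = 0.0699), with total-count scaling (0.0552, edgeR) and without a filter (0.0502, edgeR). The call was likewise lost when any 1 library other than TAC replicate 3 was left out, with edgeR adjusted p from 0.0643 without TAC replicate 2 to 0.125 without sham replicate 2.

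Igf2, the fetal growth factor that is expressed from the paternal allele, had 4.57, 4.55 and 3.69 FPKM in TAC and 8.04, 10.7 and 7.39 FPKM in sham. The highest TAC library was well under the lowest sham library, and the mean was 4.27 ± 0.507 FPKM in TAC against 8.71 ± 1.75 FPKM in sham (SD, n = 3 each). It rested on 1548 to 1934 estimated counts per TAC library and 2838 to 4223 per sham library. On the log2 scale Igf2 fell by 0.86 ± 0.19 (SE; edgeR adjusted p = 0.0387). With GC and length trends removed the log2 fold change was -0.63 and the edgeR adjusted p 0.112. It passed without TAC replicate 3 (edgeR adjusted p = 0.0200, the fit that called 10.1% of tested genes lower) and missed without each of the others, from 0.0646 without TAC replicate 2 to 0.159 without sham replicate 2. H19, the maternally expressed noncoding RNA whose gene lies 72622 bases from Igf2 on chromosome 7, had 9.78, 14.5 and 15.7 FPKM in TAC and 16.3, 30.2 and 15.2 FPKM in sham, groups that overlapped (edgeR adjusted p = 0.288). Igf2os, on the other strand of Igf2, had 0 to 10 estimated counts per TAC library and 0 to 29 per sham library.

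Igf2 remained the more abundant ligand in all 6 libraries, but the balance between the ligands differed. Igf1 came to 13.6%, 8.53% and 13.7% of the Igf2 level in TAC and 2.38%, 2.31% and 2.76% in sham, groups that did not overlap. The log2 ratio of Igf1 to Igf2 averaged -3.10 ± 0.39 in TAC and -5.34 ± 0.14 in sham (SD, n = 3 each), a difference of 2.24. Its exact two-sided permutation p was 0.1, the smallest that 3 against 3 allows. With Igf1 above and Igf2 below in every TAC library, the ratio had to separate, so this p adds nothing to the single genes. The fitted log2 fold changes of Igf1 and Igf2 differed by 2.24 with the count filter and by 1.21 with GC and length trends removed. Added together, the ligands came to 4.78 ± 0.522 FPKM in TAC and 8.93 ± 1.78 FPKM in sham (SD, n = 3 each; exact two-sided permutation p = 0.1).

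**Figure D2:**
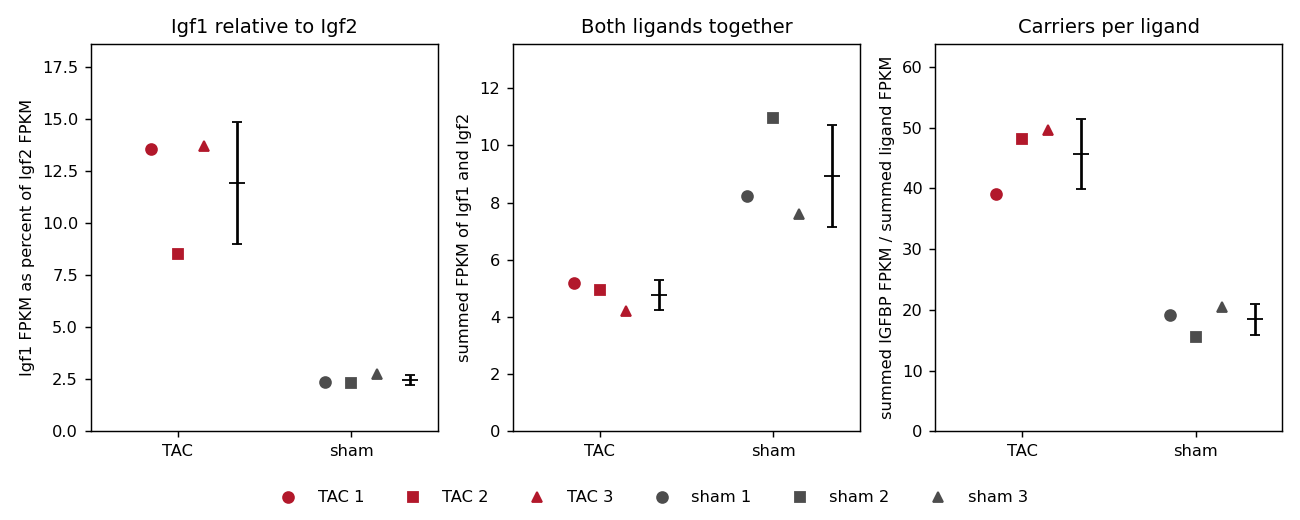
Igf1 as a percentage of Igf2, the summed FPKM of both ligands, and summed binding-protein FPKM per summed ligand FPKM, in each library, with TAC at the left and bars for mean ± SD (n = 3). The ligand sum is lower in all 3 TAC libraries, and both ratios are higher, at 8.53% to 13.7% in TAC and 2.31% to 2.76% in sham for the ligands, and at 39.0 to 49.7 in TAC and 15.6 to 20.4 in sham for the binding proteins.

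Neither receptor gene passed the test. Igf1r had 0.533, 0.682 and 1.05 FPKM in TAC and 0.602, 0.549 and 0.612 FPKM in sham, so that 1 TAC library lay below and the other two above the sham range. Its log2 fold change was 0.38 ± 0.20 (SE; edgeR adjusted p = 0.269, count filter). Insr, the insulin receptor that can pair with IGF1R in hybrid receptors, had 1.49, 1.37 and 4.66 FPKM in TAC and 1.65, 0.994 and 1.39 FPKM in sham. Igf1r amounted to 36.1% ± 13.7 of the Insr level in TAC and 45.3% ± 9.34 in sham (SD, n = 3 each), and the log2 ratios did not differ beyond their spread (exact two-sided permutation p = 0.4).

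The Igf2r difference turned on 1 library. This gene had 8.23, 6.77 and 21.8 FPKM in TAC and 12.9, 10.8 and 11.2 FPKM in sham. TAC replicates 1 and 2 lay below every sham library and TAC replicate 3 lay above them all. Its log2 fold change was 0.18 ± 0.35 (SE; edgeR adjusted p = 0.790), and without TAC replicate 3 it was -0.42 (edgeR adjusted p = 0.0684). Airn, a noncoding RNA read from the other strand of the same place on chromosome 17, overlaps the span of Igf2r by 28354 bases. It had 48 to 167 estimated counts per TAC library and 34 to 89 per sham library, and its share in the Igf2r count cannot be told apart, since whether reads were counted by strand is not known.

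Among the binding proteins, Igfbp2 differed most in ratio and was among the least abundant. This carrier, which also has an integrin-binding motif, had 57, 203 and 32 estimated counts in TAC and 0, 8 and 0 in sham, where a count of 0 allows up to 3. In FPKM this was 0.455, 1.47 and 0.231 in TAC, and 0, 0.0625 and 0 in sham. All TAC libraries lay above all sham libraries, and the TAC libraries differed widely among themselves. Its fitted log2 fold change was 5.16 ± 1.17 (SE; edgeR adjusted p = 0.0430, count filter), and it remained past the threshold with GC and length trends removed (5.27, edgeR adjusted p = 0.0397). It missed with total-count scaling (edgeR adjusted p = 0.0611), without a filter (0.0598) and with limma on log2(FPKM + 1) (0.110). It entered that fit through the TAC libraries alone, and its size depends on the 8 estimated counts of sham replicate 2, the only ones in that group. Left out in turn, each library but TAC replicate 3 ended the call, with edgeR adjusted p from 0.0826 without sham replicate 1 to 0.125 without sham replicate 2.

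Igfbp7 and Igfbp6 were higher in all TAC libraries and did not pass the test. Igfbp7, a secreted protein of vessel walls with low affinity for IGFs and a studied blood marker of heart failure, had 130.9, 163.9 and 115.3 FPKM in TAC and 97.9, 96.8 and 84.7 FPKM in sham. The mean was 136.7 ± 24.8 FPKM in TAC and 93.1 ± 7.32 FPKM in sham (SD, n = 3 each). Its log2 fold change was 0.71 ± 0.19 (SE; edgeR adjusted p = 0.0571). It was past the threshold without TAC replicate 3 (0.87, edgeR adjusted p = 0.00823) and with GC and length trends removed (0.81, edgeR adjusted p = 0.0259). It missed by more with the count filter (edgeR adjusted p = 0.0936), with total-count scaling (0.0808) and without any 1 of the other libraries (0.0969 to 0.197). The 3′ end of Polr2b on the other strand overlaps the Igfbp7 span by 85 bases. The 8 endothelial markers summed to 207, 202 and 147 FPKM in TAC and 189, 177 and 168 FPKM in sham, groups that overlapped.

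Igfbp6, a carrier with a preference for IGF2, had 27.9, 32.4 and 28.8 FPKM in TAC and 16.4, 22.8 and 22.3 FPKM in sham. Its means were 29.7 ± 2.37 FPKM in TAC and 20.5 ± 3.59 FPKM in sham (SD, n = 3 each), with no overlap. The log2 fold change was 0.69 ± 0.17 (SE; edgeR adjusted p = 0.0507). As with Igfbp7, it passed without TAC replicate 3 (0.77, edgeR adjusted p = 0.0191) and with the trends removed (0.84, edgeR adjusted p = 0.0201). It missed by more with the count filter (edgeR adjusted p = 0.0931), with total-count scaling (0.0953) and without any 1 of the other libraries (0.105 to 0.155). The fit with trends removed called 2.76% of the tested genes higher in TAC. DESeq2 passed both, at adjusted p = 0.00429 for Igfbp6 and 0.00678 for Igfbp7.

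The other 3 binding proteins overlapped between the groups. Igfbp5, which binds extracellular matrix and lies 5457 bases from Igfbp2 on chromosome 1 on the opposite strand, had 14.5, 10.5 and 26.8 FPKM in TAC and 13.0, 12.2 and 11.3 FPKM in sham. TAC replicate 3 was far above the rest, and the log2 fold change was 0.62 ± 0.27 with all libraries (SE; edgeR adjusted p = 0.173) and 0.25 without that library. Igfbp3, the main carrier of IGFs in blood, had 3.52, 3.57 and 6.22 FPKM in TAC and 4.59, 6.12 and 8.34 FPKM in sham (log2 fold change -0.39 ± 0.26, SE; edgeR adjusted p = 0.372). Igfbp4, a carrier that inhibits IGF action until the protease PAPP-A cuts it, had 25.5, 25.9 and 30.9 FPKM in TAC and 26.3, 32.8 and 28.7 FPKM in sham. Its log2 fold change was 0.05 ± 0.13 (SE; edgeR adjusted p = 0.832), with a direction that turned with total-count scaling, at -0.074, and a value of 0.26 with trends removed (edgeR adjusted p = 0.160).

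**Figure D3:**
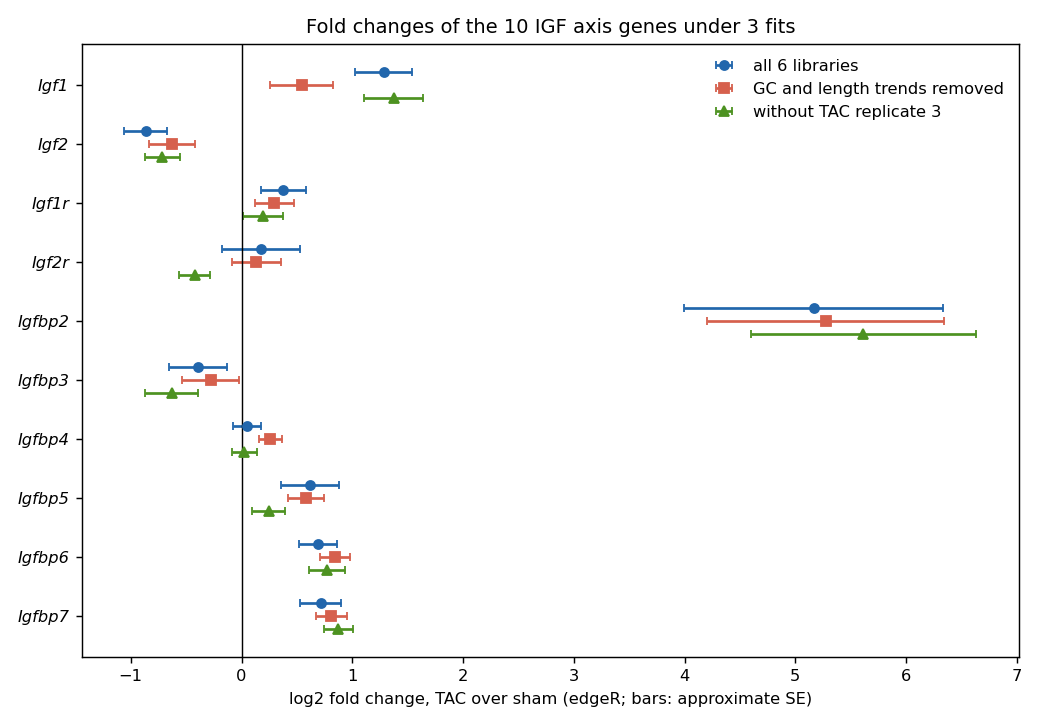
Log2 fold change of TAC over sham for each of the 10 genes, by edgeR with all libraries, with trends over GC content and length removed, and without TAC replicate 3; lines span 1 SE to each side, and Igf1, Igf1r and Igfbp2 come from the fit with the count filter. Igf1 (1.28, and 0.54 with trends removed) and Igf2r (0.18, and -0.42 without TAC replicate 3) moved most between the fits, and Igfbp2 lies far above the rest at 5.16.

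Summed over the 6 binding proteins, the level was 202.7, 237.7 and 208.2 FPKM in TAC and 158.1, 170.7 and 155.4 FPKM in sham. Each TAC library lay above each sham library, with means of 216 ± 18.8 FPKM in TAC and 161 ± 8.21 FPKM in sham (SD, n = 3 each; exact two-sided permutation p = 0.1). The separation came with Igfbp7. The other 5 genes summed to 71.9, 73.8 and 92.9 FPKM in TAC and 60.2, 74.0 and 70.7 FPKM in sham, which overlapped (exact two-sided permutation p = 0.3). Set against the ligands, the sum of all 6 came to 39.0, 48.1 and 49.7 FPKM per FPKM of ligand in TAC and 19.2, 15.6 and 20.4 in sham. As that sum lay above and the ligand sum below in every TAC library, the ratio had to separate (exact two-sided permutation p = 0.1). These ratios are of messenger RNA in the ventricle and do not include the ligand that reaches the heart in blood.

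**Figure D4:**
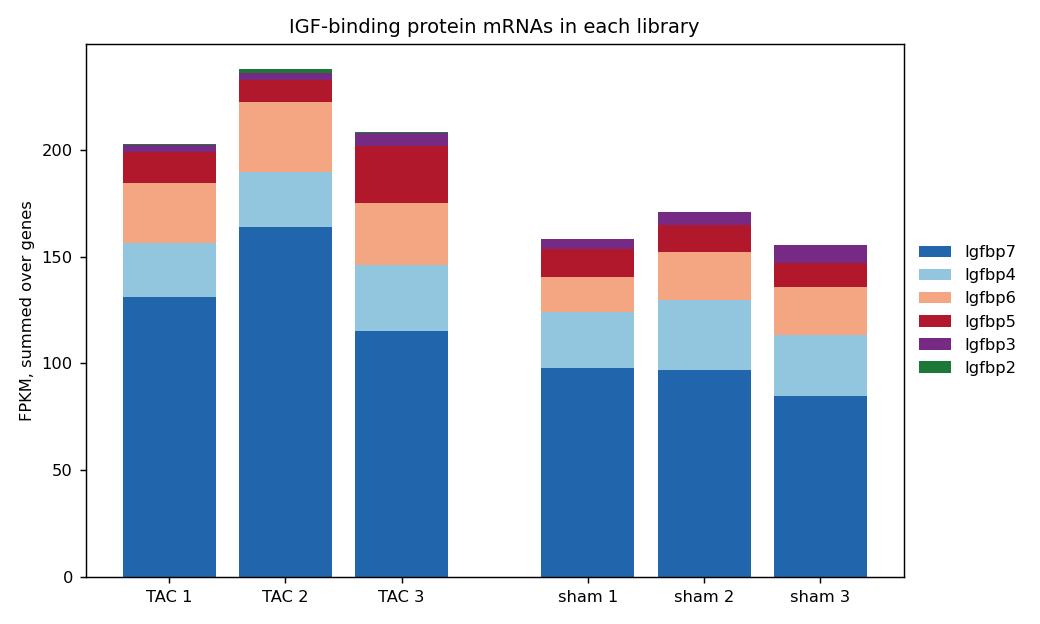
Summed FPKM of the 6 binding-protein genes in each library, stacked by gene, with the TAC libraries left of the sham libraries. The sums are 202.7 to 237.7 FPKM in TAC and 155.4 to 170.7 FPKM in sham, and Igfbp7 is the largest layer of each bar.

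Igfbp7 took 63.0% ± 6.94 of the sum in TAC and 57.7% ± 3.81 in sham (SD, n = 3 each), with overlap. Igfbp4 took 12.8% ± 1.98 in TAC and 18.1% ± 1.34 in sham, and every TAC library lay below every sham library (exact two-sided permutation p = 0.1, 0.30 after Benjamini-Hochberg adjustment over the 6 shares). The Igfbp6 share was 13.7% ± 0.105 in TAC and 12.7% ± 2.09 in sham, and that of Igfbp5 was 8.13% ± 4.32 in TAC and 7.54% ± 0.582 in sham. Igfbp3 made up 2.07% ± 0.799 in TAC and 3.95% ± 1.27 in sham, and Igfbp2 made up 0.319% ± 0.267 in TAC and 0.0122% ± 0.0211 in sham. Adjusted over the 6 shares, the lowest p was 0.30.

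Other genes of the pathway were taken from 6 lists by role, 68 genes of which are in the table. With the FPKM minimum 42 of them were tested, and 1 rose, 3 fell and 38 did not pass, with a median log2 fold change of -0.09 where that of all tested genes was -0.01. With the count filter 63 were tested, and 2 rose, 5 fell and 56 did not pass (median 0.06, all tested genes 0.04). The shares of all tested genes that passed are those given above.

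Genes of proteases that cut binding proteins, with their inhibitors, held 1 that rose and 1 that fell among 9 tested. Timp1, an inhibitor of matrix metalloproteinases, had 6.13, 8.09 and 11.1 FPKM in TAC and 2.33, 2.59 and 1.86 FPKM in sham and rose by 2.02 ± 0.24 (log2, SE; edgeR adjusted p = 0.00993). It missed the threshold only without sham replicate 2 (edgeR adjusted p = 0.0652). Htra1, a serine protease that cuts IGFBP5, had 27.5, 27.6 and 27.2 FPKM in TAC and 42.1, 50.6 and 44.2 FPKM in sham, and it fell by 0.58 ± 0.13 on the log2 scale (SE; edgeR adjusted p = 0.0387). Stc2, which encodes stanniocalcin 2, an inhibitor of PAPP-A, had 2.05, 1.70 and 2.79 FPKM in TAC and 3.62, 4.21 and 3.73 FPKM in sham, groups that did not overlap. It passed with the count filter (log2 fold change -0.79, edgeR adjusted p = 0.0400) and had an adjusted p of 0.0510 with the FPKM minimum. Pappa, the gene of PAPP-A, was hardly detected, at 0.0305, 0 and 0 FPKM in TAC and 0, 0.0067 and 0 FPKM in sham. The most abundant genes of this list, the lysosomal protease Ctsd (891 ± 164 FPKM in TAC, 800 ± 69.3 FPKM in sham) and the gelatinase Mmp2 (45.4 ± 32.6 FPKM in TAC, 34.2 ± 7.87 FPKM in sham), overlapped between the groups (SD, n = 3 each).

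Growth hormone drives Igf1 in liver through STAT5, and of 4 tested genes of that input 1 fell. Stat5a had 1.73, 1.60 and 2.60 FPKM in TAC and 3.79, 4.48 and 3.46 FPKM in sham and fell by 0.85 ± 0.18 on the log2 scale (SE; edgeR adjusted p = 0.0358), with 0.0554 once trends were removed. Cish, a STAT5 target that damps cytokine signalling, had 13.7, 10.9 and 17.6 FPKM in TAC and 20.3, 25.6 and 26.1 FPKM in sham, and passed with the count filter (log2 fold change -0.74, edgeR adjusted p = 0.0447), not with the FPKM minimum (0.0596). Stat5b was more abundant, at 9.50 ± 3.37 FPKM in TAC and 13.1 ± 0.726 FPKM in sham (SD, n = 3 each), and its groups overlapped through TAC replicate 3. Its log2 fold change was -0.34 with all libraries (edgeR adjusted p = 0.287). Without TAC replicate 3 it was -0.58 (edgeR adjusted p = 0.0127), in the fit that called 10.1% of tested genes lower.

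Downstream of the receptor, 1 of 14 tested PI3K, AKT, mTOR and FOXO genes passed. Akt2, a kinase of insulin and IGF signalling, had 31.6, 28.8 and 40.3 FPKM in TAC and 54.0, 67.2 and 57.4 FPKM in sham and fell by 0.69 ± 0.14 on the log2 scale (SE; edgeR adjusted p = 0.0341, and 0.0430 with trends removed). Akt1, its more abundant relative, had 56.5, 51.5 and 69.5 FPKM in TAC and 82.8, 90.7 and 74.5 FPKM in sham, groups that did not overlap (log2 fold change -0.34 ± 0.14, SE; edgeR adjusted p = 0.146). With the count filter the PI3K catalytic subunit gene Pik3ca, with 0.764, 0.818 and 0.906 FPKM in TAC and 0.487, 0.227 and 0.443 FPKM in sham, rose by 1.15 ± 0.28 (log2, SE; edgeR adjusted p = 0.0498). Its longest transcript is also long and low in G and C, like that of Igf1. With trends removed the log2 fold change of Pik3ca was 0.56 (edgeR adjusted p = 0.217). Htra1, Stat5a, Akt2 and Pik3ca each lost their call when any 1 library other than TAC replicate 3 was left out, with edgeR adjusted p between 0.0561 and 0.161, and Stc2 and Cish did not pass with the FPKM minimum in any of those fits.

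None of 9 tested receptor adaptors and brakes passed in the planned edgeR test. In other fits some did, among them Grb2 without TAC replicate 3 (edgeR adjusted p = 0.0433). The adaptor Grb2 had 22.0 ± 5.27 FPKM in TAC and 30.1 ± 1.45 FPKM in sham, and the phosphatase Ptpn11 21.1 ± 6.03 FPKM in TAC and 18.6 ± 0.753 FPKM in sham (SD, n = 3 each). In the planned test, none of 4 tested genes among the other ligand, carrier and receptor genes passed either. There M6pr, the second mannose 6-phosphate receptor, had 7.68 ± 1.82 FPKM in TAC and 7.37 ± 0.539 FPKM in sham. Of the regulators of imprinting and IGF2 messenger RNA 2 were tested and neither passed in the planned test, the imprinted growth brake Cdkn1c (15.6 ± 6.03 FPKM in TAC, 14.6 ± 1.19 FPKM in sham) and Ctcf, which insulates the Igf2 and H19 region (2.25 ± 0.765 FPKM in TAC, 1.65 ± 0.595 FPKM in sham). Without TAC replicate 3 Cdkn1c passed as higher (log2 fold change 0.58, edgeR adjusted p = 0.0268), in the fit that called 9.24% of tested genes higher.

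**Figure D5:**
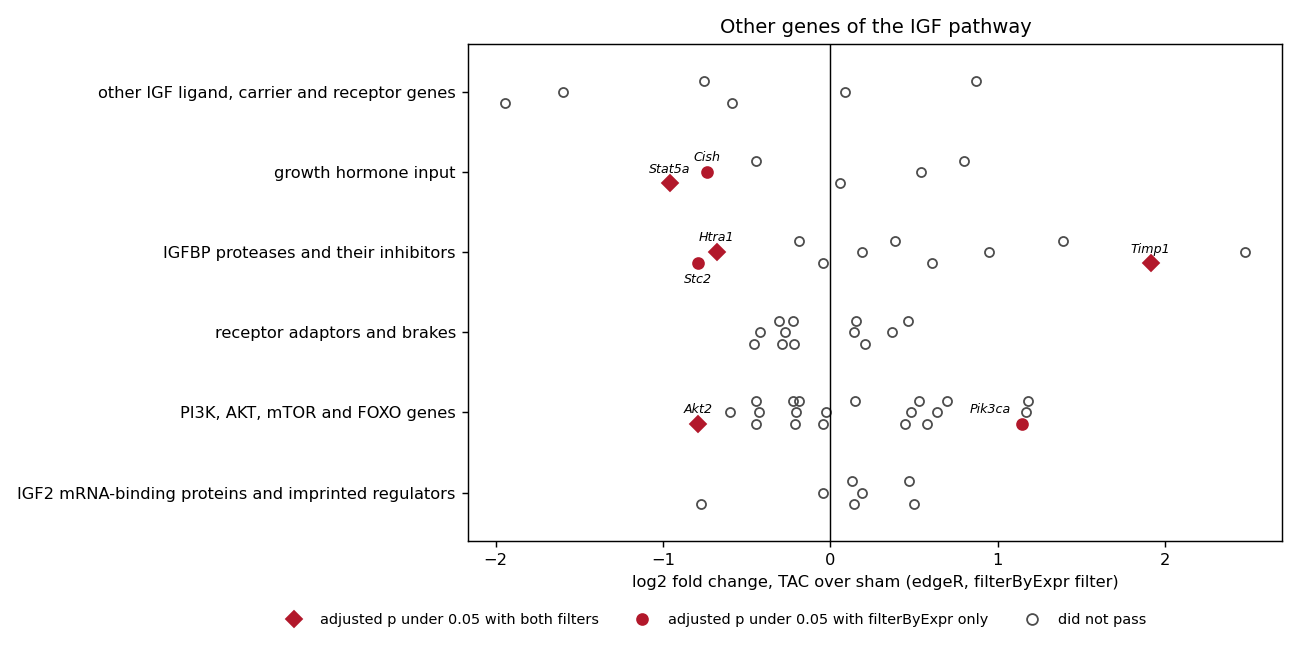
Log2 fold change of TAC over sham for the 63 other pathway genes tested with the count filter, in 6 lists by role; each point is 1 gene. Filled points passed an adjusted p of 0.05, with Timp1 furthest to the right at 1.91 and Stat5a furthest to the left at -0.96, and open points lie on both sides of 0 in every list.

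Across the 6 libraries, the genes whose levels followed each IGF gene most closely were sought among the 6383 genes averaging at least 2 FPKM. Levels here were TMM-scaled CPM, estimated counts scaled to library size, on a log2 scale. They were compared by Pearson's r over 6 values, of which 3 share a group. Igf2 ran closest to Maz, Ing4 and Trpm4 (r = 0.998 for Maz), and 407 genes had an r over 0.9 with it. Igf2r ran close to Hk2 and Dnm1 (r = 0.996 for Hk2; 239 genes over 0.9), and Igfbp5 closest to Cog6, Mrc2 and Tbl1x (r = 0.994 for Cog6; 160 genes). For both, TAC replicate 3 stood apart, at 208 CPM against 73.9 to 124 in the other libraries for Igf2r and 165 against 69.4 to 102 for Igfbp5. How far their r values rest on that library was not tested. Igfbp7 followed Myoz2, Tmem126a and Fabp3 most closely (r = 0.997 for Myoz2; 150 genes), and Igfbp6 followed Mmp3, the pseudogene Rpl21-ps8 and Ifnar2 (r = 0.994 for Mmp3; 101 genes). For Igfbp3 the nearest were Gaa, Gas6 and Sympk (r = 0.986 for Gaa; 41 genes). Igfbp4 had the fewest like it, with Khk, Ormdl3 and Rcl1 nearest (r = 0.968 for Khk) and 4 genes over 0.9. Igf1, Igf1r and Igfbp2 were under the minimum of this search.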

How the data were processed

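Left ventricle RNA of 3 TAC and 3 sham samples was analysed, grouped by the labels. Per the labels' protocols, RNA was extracted with Trizol, selected on oligo(dT) beads and made into libraries with a dUTP-marked second strand. HISAT2 2.0.4, StringTie 1.3.4d, cutadapt 1.9 and the build GRCm38 are named in the submitters' processing notes. No source used here gives the annotation release, filters or strand setting. The authors deposited FPKM and what are here called estimated counts per gene, per the file headers, which label the latter only as count. Of counts under 60 of single-transcript genes, 88.5% to 90.0% in each library could be had from FPKM, transcript length and 1 factor per library by rounding up, to within 0.1. The check would also accept read tallies from which FPKM were computed, so it cannot tell these from estimates made from coverage. No source used here says how the counts were made. Were they estimates from coverage, counting error would understate their uncertainty. The counts were already whole.

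The planned test was edgeR's quasi-likelihood test (edgeR 4.0.16, R 4.3.3) with TMM scaling on the 8795 genes that average at least 1 FPKM, adjusted by Benjamini-Hochberg over all of them. As 3 of the 10 genes fell under that minimum, their values come from a fit on the 15926 genes kept by filterByExpr, added after the data were seen. The SE is the size of the log2 fold change divided by the square root of F, an approximation. Alternatives were DESeq2 1.42.0 and limma 3.58.1 on log2(FPKM + 1) and log2(FPKM + 0.1). Others were different scalings and filters, a replicate block, removal of GC and length trends, and leaving out each library. The trends were fitted by lowess (span 0.3) over the length and GC of each gene's longest listed transcript. Those came from GENCODE M21, in which 24559 of 24602 identifiers were found. Ratios and sums of FPKM were compared by exact permutation tests. Beyond the 10 genes, the text names in each list the genes that passed and the 2 with the highest mean FPKM. It adds Insr as the partner of Igf1r and Pappa as the gene of the protease that Stc2 inhibits. For each IGF gene above that minimum it names the 3 genes with the nearest pattern. One gene of the lists and one of the nearest patterns are not reported here. The edgeR and DESeq2 tests were run on simulated counts with planted changes. Those counts held no GC or length trend and no outlying library, so that check does not cover such features of these data. The genes and lists were chosen with earlier results of these data known. The labels state no pairing, so same-numbered samples were not treated as pairs. Their deviations did not all run together, which with 3 samples per group cannot exclude pairing.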

Additional observations from a re-analysis of the deposited data

How the results depend on the processing

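Counts of IGF genes are over the 7 above the FPKM minimum unless a filter is named. Igfbp2 met filterByExpr through its TAC libraries alone, so it adds nothing to a count of IGF genes higher with that filter. With all libraries, 414 genes were higher and 201 lower in TAC, with 0 and 1 among the IGF genes and 1 and 3 among the other pathway genes. DESeq2 called 1031 higher and 617 lower, with 2 IGF genes higher and 3 and 6 other pathway genes; of the IGF genes under the minimum, Igf1 (adjusted p = 0.000462) and Igfbp2 (0.0402) passed too. limma called 174 higher and 338 lower on log2(FPKM + 1) and 170 and 336 on log2(FPKM + 0.1); there the median log2 fold change of all genes was -0.13 and -0.16, against -0.01 with TMM, so FPKM sit lower in TAC by about that much. Total-count scaling (median -0.14) called 157 higher, and upper-quartile scaling 2 IGF genes higher, with Igf1 (edgeR adjusted p = 0.0280) and Igfbp2 (0.0386) passing beside them. Without a filter 163 genes were higher and 122 lower, with 0 IGF genes lower. With filterByExpr 2 IGF genes were higher, with 2 and 5 other pathway genes. Removing GC and length trends left 243 genes higher and, of the IGF genes, 2 higher and 0 lower; with filterByExpr as well, 237 genes, and 3 and 0 of the IGF genes. The cause of these differences was not tested.

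With the replicate number as a block, 141 genes were higher and 42 lower, with 0 IGF genes and 0 other pathway genes lower and Igfbp2 higher among those under the minimum (edgeR adjusted p = 0.0402), but not Igf1 (0.0731); with trends removed too, 112 and 56, with 1 IGF gene higher, Igfbp2 beside it (0.0360), and 0 lower, and 0 other pathway genes lower. Deviations of same-numbered samples correlated at -0.18, 0.19 and -0.14, and samples did not all correlate best with their own number. Deviations from the mean of 3 samples leave few free comparisons, so this cannot exclude a shared batch or litter.

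Leaving out 1 library gave between 9 and 813 genes higher and 3 and 892 lower with the FPKM minimum, 0 to 2 IGF genes higher and 0 to 1 lower, and 0 to 3 other pathway genes higher and 0 to 10 lower. With filterByExpr (478 higher and 296 lower with all libraries) the ranges were 2 to 875 and 1 to 1008 genes, 0 to 4 and 0 to 1 IGF genes, and 0 to 2 and 0 to 12 other pathway genes. The highest counts came without TAC replicate 3 and the lowest without sham replicate 2.

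Directions turned for Igf2r (-0.10 and -0.12 by limma with pseudocounts of 1 and 0.1, -0.42 without TAC replicate 3, and up to 0.44 without another library), for Igfbp4 (-0.090 and -0.093 by limma, -0.074 with total-count scaling, -0.054 without a filter, -0.051 with filterByExpr), for M6pr (-0.12 with trends removed, -0.13 with the block as well), for Mmp2 (-0.15 without TAC replicate 3, and up to 0.75 without another library) and for Cdkn1c (-0.040 without TAC replicate 2, and up to 0.58 without another library). Of 428 alternative values of single genes, 330 kept direction and side of the threshold, 67 lost and 19 gained a call, and 12 turned. The difference in the ratio of Igf1 to Igf2 was 1.21 with trends removed. Summed over TMM-scaled CPM the binding proteins differed by 128. Without Igfbp7 the FPKM sum differed by 11.2, and shares of that sum by 0.93 percentage points for Igfbp2, -3.76 for Igfbp3, -8.26 for Igfbp4 and 8.05 for Igfbp6. Low counts limit Igfbp2 most.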
